A study of Mus musculus with 4 samples.

Results

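The 10 genes described here, Arf5, Snd1, Rbm28, Impdh1, Calu, Atp6v1f, Tnpo3, Smo, Ahcyl2 and Nrf1, lie around Irf5 on mouse chromosome 6 and were taken by symbol, for their position, from the 32285 genes counted. Irf5 encodes a transcription factor of the interferon regulatory factor family and is the gene targeted in the study. CD3+CD4+ T cells were sorted from mouse spleen, stimulated for 6 hours on anti-CD3/anti-CD28 beads and profiled by droplet single-cell sequencing of 3′ ends. Of the 4 libraries, all stimulated, 2 carry the genotype label Irf5-/- (called knockout here) and 2 the label WT (called wild type), with 1 female and 1 male library of each. The labels give no strain, no age, no cultures without beads, no part of Irf5 that was removed, and no number of mice per library. P-values therefore measure only the spread between these libraries, which may be technical. In the tests of expression that spread is estimated in part from other genes, not from the gene tested alone.

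When a CD4 T cell is triggered through its antigen receptor and CD28, it grows before it divides. It makes more ribosomes, nucleotides, proteins and mitochondria, and it carries more cargo into the nucleus. Several genes beside Irf5 belong to these routes. Rbm28 encodes a nucleolar RNA-binding protein needed to build the large ribosomal subunit, and Impdh1 encodes an IMP dehydrogenase, which makes guanine nucleotides. Nrf1 encodes nuclear respiratory factor 1, a transcription factor for nuclear genes of the mitochondrial respiratory chain, and Tnpo3 encodes the receptor that carries serine/arginine-rich (SR) splicing factors into the nucleus. Snd1 encodes a staphylococcal-nuclease-domain RNA-binding protein with roles in splicing and RNA decay. Calu encodes calumenin, a calcium-binding protein of the secretory pathway. Arf5 encodes a small GTPase of Golgi trafficking, Atp6v1f a subunit of the proton pump that acidifies lysosomes, and Ahcyl2 a protein related to S-adenosylhomocysteine hydrolase. Smo encodes Smoothened, the transmembrane protein that passes on hedgehog signals.

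By GENCODE M21 on GRCm38, Irf5 spans chr6:29526625-29541871 on the plus strand. Tnpo3 (chr6:29540827-29609887, minus strand) overlaps its 3′ end by 1045 bases. Atp6v1f, Calu, Impdh1, Rbm28, Snd1 and Arf5 follow toward lower coordinates, at 56.1, 149.5, 310.3, 361.6, 591.5 and 1100 kb from Irf5. Toward higher coordinates lie Smo at 193.6 kb, Ahcyl2 at 226.1 kb and Nrf1 at 506.1 kb. All 10 are protein-coding. Arf5 (chr6:28423560-28426602, plus strand) lies inside Gcc1, which is read from the minus strand, and Snd1 and Calu overlap the minus-strand genes Lrrc4 and Opn1sw. Whether reads were counted by strand is not given in the sources used here. How well reads of overlapping genes were kept apart is therefore not known.

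Promoters are shown for the pair of genes that differed by genotype, Arf5 and Smo, and for 2 whose promoter holds a motif named after a factor of the study or of the region: Atp6v1f (the motif of NRF1, the protein of Nrf1) and Rbm28 (the interferon regulatory factor, IRF, motif). Each line gives the 250 bases before the RefSeq start of the gene, 5′ to 3′ on the gene's own strand, on GRCm38.p6. The regions are chr6:28423354-28423603 (Arf5, plus), chr6:29735247-29735496 (Smo, plus), chr6:29467533-29467782 (Atp6v1f, plus) and chr6:29164725-29164974 (Rbm28, minus). Capitals mark an exact match, on either strand, to the E-box, NRF1, ETS or IRF motif given after the sequences.
Arf5: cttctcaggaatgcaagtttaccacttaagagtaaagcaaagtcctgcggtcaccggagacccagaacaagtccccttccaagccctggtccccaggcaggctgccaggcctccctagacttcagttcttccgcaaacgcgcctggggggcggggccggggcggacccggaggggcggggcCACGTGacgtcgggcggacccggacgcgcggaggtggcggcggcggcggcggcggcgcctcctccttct
Smo: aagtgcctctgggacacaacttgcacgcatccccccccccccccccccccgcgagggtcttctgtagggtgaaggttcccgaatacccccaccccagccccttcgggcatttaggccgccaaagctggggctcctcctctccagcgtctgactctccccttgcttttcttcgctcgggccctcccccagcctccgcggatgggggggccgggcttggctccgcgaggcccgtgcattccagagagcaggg
Atp6v1f: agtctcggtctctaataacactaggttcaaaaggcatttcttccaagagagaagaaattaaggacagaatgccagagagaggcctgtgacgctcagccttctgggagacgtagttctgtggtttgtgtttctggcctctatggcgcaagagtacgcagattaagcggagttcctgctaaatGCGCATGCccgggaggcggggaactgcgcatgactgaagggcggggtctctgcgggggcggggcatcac
Rbm28: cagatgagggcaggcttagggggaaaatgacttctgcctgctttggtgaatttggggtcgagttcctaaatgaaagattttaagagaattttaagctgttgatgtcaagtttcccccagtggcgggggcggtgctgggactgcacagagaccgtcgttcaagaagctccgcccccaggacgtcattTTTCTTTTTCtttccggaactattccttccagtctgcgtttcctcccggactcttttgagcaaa

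The motifs searched, over 250 bases before to 50 after each start and on both strands, were the E-box CACGTG, the NRF1 motif GCGCATGC, the cAMP response element (CRE) TGACGTCA and its shorter core TGACGT, the ETS motif CCGGAAGT, the GC box GGGGCGGGG, and the IRF motif (GAAA, any 2 bases, GAAA). The CRE holds its core, so matches to these 2 overlap. The 10 genes have 14 such promoters in the table. The Arf5 promoter holds an E-box, as do 7.15% of all 32851 promoters. Atp6v1f holds the NRF1 motif (2.71% of all promoters), Rbm28 the IRF motif (3.44%), and Snd1, Calu and Tnpo3 the ETS motif (3.89%). The core of the CRE is in 5 of the 14 (7.51% of all promoters), Arf5 and Rbm28 among them, and the GC box in 5 (11.4%), Arf5 and Atp6v1f among them. None of the 14 holds the whole CRE, which 1.79% of all promoters hold, and none of the 7 motifs is in the Smo window. RefSeq and GENCODE place some starts differently: against the GENCODE positions above, the Rbm28 stretch lies within the gene, the ends of the Arf5 and Atp6v1f stretches run into it, and the Smo stretch lies before it. The median GC content was 60.8% over the 14 promoters and 52.7% over all promoters. These matches describe letters and were not tested for binding.

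Cells were barcodes with at least 2000 UMIs (unique molecular identifiers, each marking 1 captured RNA molecule), at least 500 genes and at most 10% mitochondrial UMIs. This left 19100 cells: 6178 and 6543 in the female and male libraries labelled knockout, and 1814 and 4565 in those labelled wild type. The libraries held 28841161 to 55850754 UMIs, and the median cell held 5104.5 and 6741 UMIs in the libraries labelled knockout against 8416 and 9661 in those labelled wild type. The female library labelled wild type stood apart: 36.2% of its UMIs were free RNA (in barcodes of under 200 UMIs), against 8.62 to 14.7% in the other 3, and its 7 erythroid markers summed to 1419 counts per 1000000 UMIs (CPM) against 15.0 to 43.3. The 8 B-cell markers summed to 169 and 80.8 CPM in the libraries labelled knockout and to 29.7 and 27.1 in those labelled wild type. In the same order, 4 regulatory T-cell markers summed to 231 and 199.96 against 131 and 117 CPM, and 9 myeloid and dendritic markers to 121 and 90.6 against 58.9 and 79.9 CPM. The part of these differences in the results was not tested beyond the settings in which such cells, or a library, were left out. Libraries shared between 2 and 14 cell barcodes a pair, at most 0.551% of either library's cells.

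Irf5 itself went against the labels. It gave 293 and 432 UMIs in the female and male libraries labelled knockout, and 15 and 55 in those labelled wild type, a log2 difference of 2.94 (SE 0.18, edgeR adjusted p = 6.0e-07). Counts from the 3′ end check a deletion only where it takes in that end, and which part was removed is not stated. Libraries are therefore named by their labels throughout.

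A cell was called activated or resting by the share of UMIs of 13 activation genes among the UMIs of these and of 10 resting genes. The cut was 0.225, the lowest point between the 2 peaks of the score averaged over the libraries, and 4 to 18 cells a library with under 5 UMIs of the lists were left unclassed. None of the 10 genes is on either list, but states were cut from the same cells' counts, so the state tests compare classes, not treatments. Activated cells made up 77.0% and 75.7% of the female and male libraries labelled knockout, and 76.3% and 75.4% of those labelled wild type. The score is a range. A band of 0.188 on each side of the cut was set to hold 20% of all cells. It held 56.1% and 57.2% of the resting cells in the female and male libraries labelled knockout, and 65.2% and 54.8% in those labelled wild type. Of the activated cells of a library it held 7.09 to 10.7%.

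**Figure D1:**
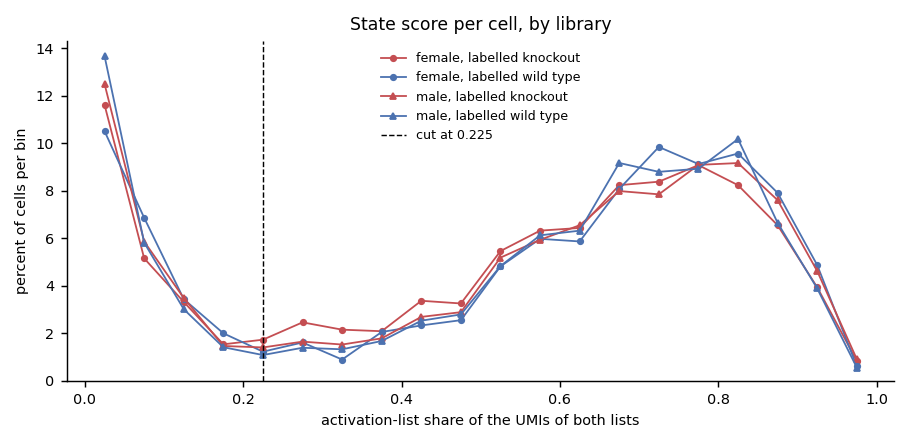
Percent of cells (vertical axis) in each bin of the state score (horizontal axis, the activation-list share of the UMIs of both lists), 1 line per library, with the cut at 0.225 dashed. In all 4 libraries the score has a peak near 0 and a broad one above 0.6, with few cells at the cut.

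Of the 10 genes, Arf5 and Smo were lower in the libraries labelled knockout over all cells, and the other 8 did not pass the test. The 2 called are to be read against 1.21% of the 12855 genes tested (0.397% called lower). The median log2 difference, knockout over wild type, was -0.09 over the 10 genes and 0.00 over all genes tested. In sums over cells, fewer cells of a type and less RNA per cell cannot be told apart.

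Arf5, the Golgi GTPase, stood at 124 and 104 CPM in the female and male libraries labelled knockout and at 178 and 180 CPM in the female and male libraries labelled wild type. The groups did not overlap, and the pair labelled wild type lay closer together than the pair labelled knockout. The means were 114 ± 13.7 and 179 ± 1.58 CPM (SD, n = 2 each), a 1.58-fold higher level in the libraries labelled wild type. The log2 difference was -0.66 (SE 0.09, 95% interval -0.86 to -0.46, edgeR quasi-likelihood adjusted p = 0.0023), and it was -0.53 between the female and -0.79 between the male libraries. These levels rest on 4339 and 5070 UMIs against 2844 and 8042. Without a sex term in the model the log2 difference was -0.65 with an edgeR adjusted p of 0.20, and without a filter on low counts it was -0.66 with an adjusted p of 0.13. It also missed the threshold without the male library labelled knockout (-0.54, edgeR adjusted p = 0.13), the female one labelled wild type (-0.66, 0.059) or the male one labelled wild type (-0.65, 0.093), fits that leave out sex too.

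Gcc1, the gene around Arf5 on the other strand, had 240 and 338 UMIs in the libraries labelled knockout and 165 and 357 in those labelled wild type. Its log2 difference was -0.38 (edgeR adjusted p = 0.35). Arf5 was also lower in the free RNA of the libraries labelled knockout: 135 and 103 UMIs per 1000000, against 181 and 165 in those labelled wild type. None of the 7 other ARF and ARF-like GTPases listed (Arf1, Arf2, Arf3, Arf4, Arf6, Arl1 and Arl3) was called by genotype, and their log2 differences lay between -0.08 and 0.05.

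Smo was scarce in every library. It gave 16 and 13 UMIs in the female and male libraries labelled knockout, against 63 and 126 UMIs in those labelled wild type. As levels, these were 0.456 and 0.268 CPM against 3.95 and 2.83 CPM, so that the groups did not overlap. The log2 difference was -3.24 (SE 0.31, 95% interval -3.92 to -2.57, edgeR adjusted p = 8.95e-05), a 9.47-fold higher fitted level in the libraries labelled wild type. Between the female libraries it was -3.11 (95% counting interval -4.00 to -2.30), and between the male libraries -3.40 (-4.35 to -2.58). With cells that carried markers of other cell types left out it was -3.75, and without a sex term the edgeR adjusted p was 0.10.

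The free RNA held 2 and 3 Smo UMIs in the female and male libraries labelled knockout, or 0.605 and 0.587 per 1000000, and 26 and 13 in those labelled wild type, or 2.49 and 1.59. The cells held 0.468 and 0.273 Smo UMIs per 1000000 in the libraries labelled knockout, which is not above their free RNA, and 3.93 and 2.71 in those labelled wild type. Of the 10 other hedgehog pathway genes listed, 5 passed the filter on low counts (Ptch1, Sufu, Kif7, Prkaca and Csnk1a1), and none was called by genotype. Ptch1, the hedgehog receptor, had a log2 difference of 0.21 (edgeR adjusted p = 0.74), and Sufu, an inhibitor of the pathway's transcription factors, of -0.11 (adjusted p = 0.94).

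Of the 8 genes that were not called, Tnpo3 is the nearest to Irf5. It stood at 88.4 and 85.7 CPM in the female and male libraries labelled knockout and at 99.9 and 87.6 CPM in those labelled wild type, with overlapping groups and a log2 difference of -0.10 (95% interval -0.29 to 0.08, edgeR adjusted p = 0.91). Atp6v1f, the pump subunit, was at 199 and 194 CPM against 182 and 198 CPM, and its interval was -0.14 to 0.23. Calu was at 41.9 and 45.9 CPM against 42.4 and 44.6 CPM, with an interval of -0.16 to 0.19. In all 3 the groups overlapped.

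Impdh1 stood at 53.6 and 51.0 CPM in the female and male libraries labelled knockout and at 51.6 and 53.4 CPM in those labelled wild type. Ahcyl2 was at 71.1 and 70.4 CPM against 67.7 and 72.7 CPM, with a log2 difference of 0.01 (95% interval -0.17 to 0.19). Both overlapped between the groups. Rbm28 was at 137 and 137 CPM against 147 and 152 CPM, and Snd1 at 53.3 and 52.6 CPM against 56.0 and 55.2 CPM. Nrf1 was at 40.5 and 40.5 CPM against 47.4 and 41.8 CPM. With TMM factors, both libraries labelled knockout were below both labelled wild type in Rbm28, Snd1 and Nrf1. However, their log2 differences of -0.13, -0.07 and -0.13 had edgeR adjusted p-values of 0.84, 0.96 and 0.81. Counting Arf5 and Smo, 5 of the 10 genes had CPM groups that did not overlap, all 5 lower in the libraries labelled knockout, while 35.7% of all genes tested had such groups, 17.3% lower. This count and its direction depend on the TMM factors. Scaled to total UMIs, the groups of Impdh1, Calu, Atp6v1f and Ahcyl2 lay apart and were higher in the libraries labelled knockout. Those of Snd1 and Nrf1 then overlapped, while Rbm28 stayed lower in both libraries labelled knockout. The share over all genes was not computed for that scaling.

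Split by state, the same pair was called. Within activated cells the log2 difference was -0.72 for Arf5 (SE 0.08, edgeR adjusted p = 1.45e-11, or 0.066 without a sex term). It was -3.58 for Smo (SE 0.35, edgeR adjusted p = 1.62e-15), on 11 and 8 UMIs against 50 and 106. These are 2 of 10 genes called, both lower in the libraries labelled knockout, against 3.28% of the 12308 genes tested (2.27% higher and 1.01% lower). Within resting cells the log2 differences were -0.46 for Arf5 (SE 0.12, edgeR adjusted p = 0.0096) and -2.24 for Smo (SE 0.58, edgeR adjusted p = 0.010), the latter on 5 and 5 UMIs against 13 and 20. Again 2 of 10 were called, against 1.58% of the 10526 genes tested (0.903% higher and 0.675% lower). The resting calls rest on few cells, 425 in the smallest library, and both lost the threshold when any 1 library was left out. In cells of at least 4000 UMIs the resting difference of Smo was -1.38 (edgeR adjusted p = 0.68). Markers of other cells were higher in the resting sums. B-cell markers summed to 349.9 and 277 CPM in the female and male libraries labelled knockout against 76.5 and 69.0 in those labelled wild type, and myeloid and dendritic markers to 326 and 226 against 102 and 127. Erythroid markers stood at 38.2 and 18.6 against 3537 and 229 CPM. With cells that carried such markers left out, the resting differences were -0.43 for Arf5 and -3.21 for Smo, with edgeR adjusted p-values of 0.030 and 0.0037. Neither resting difference was called by DESeq2, in cells of at least 4000 UMIs, without doublets, without a sex term or scaled to total UMIs.

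The other 8 genes passed the test in neither state. Their log2 differences ran from -0.16 (Nrf1) to 0.03 (Atp6v1f) within activated cells, and from -0.24 (Rbm28) to 0.28 (Snd1) within resting cells. In resting cells Snd1 stood at 36.6 and 30.1 CPM in the female and male libraries labelled knockout and at 29.96 and 24.9 CPM in those labelled wild type, so the groups lay just apart, while in activated cells its order was the other way round (59.6 and 60.6 against 64.6 and 65.9 CPM).

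**Figure D2:**
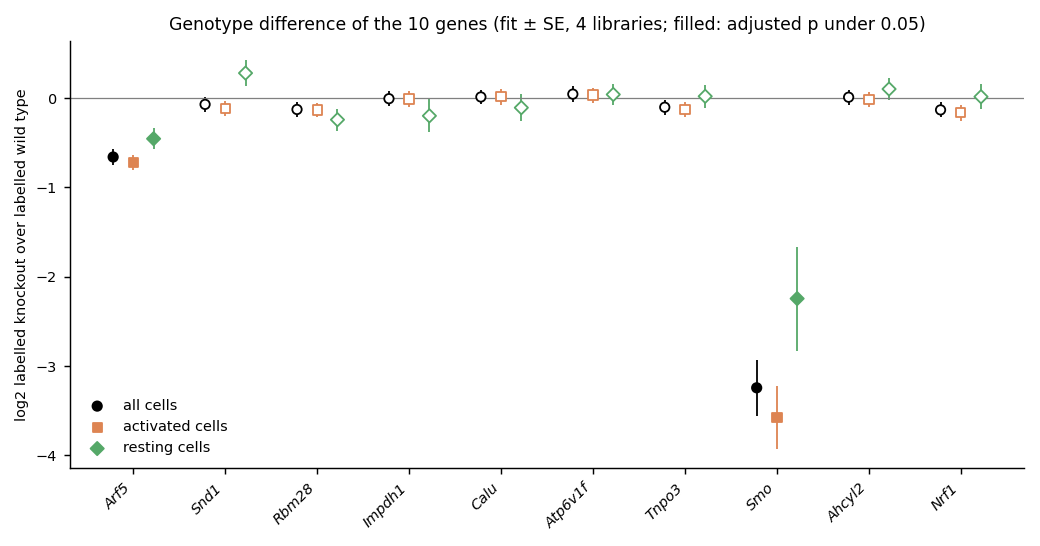
Log2 difference, labelled knockout over labelled wild type (vertical axis, fit ± SE over 4 libraries), of each of the 10 genes in all, activated and resting cells; filled points have an edgeR adjusted p under 0.05. Arf5 and Smo lie below 0, with filled points, in all 3 sets of cells, and the other 8 have open points between -0.24 and 0.28.

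The term that asks whether the genotype difference itself depended on state was called for none of the 10 genes by edgeR, and for 0% of all 10967 genes tested. Among all genes, 684 had an unadjusted p under 0.05, and DESeq2 called 1. For Arf5 the term was -0.27 (95% interval -0.50 to -0.05, edgeR adjusted p = 0.76), for Snd1 -0.43 (-0.78 to -0.09, adjusted p = 0.74) and for Smo -1.32 (-2.66 to 0.01, adjusted p = 0.79). Without the female library labelled wild type, 3 of the 10 passed the threshold: Arf5 at -0.38, Snd1 at -0.54 and Ahcyl2 at -0.43, with edgeR adjusted p-values of 0.022, 0.034 and 0.016. In that setting 263 genes were called in all. The genotype labelled wild type then has 1 library, which is assumed to vary like the others, as in every fit that leaves a library out.

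The share of cells with a UMI was compared after each cell had been thinned to 2000 UMIs, because cells were deeper in the libraries labelled wild type. Arf5 was then found in 23.6% and 19.9% of cells in the female and male libraries labelled knockout and in 31.0% and 29.97% of those labelled wild type. The means differed by -8.73 percentage points, and the unthinned shares were 48.3% and 51.0% against 75.5% and 79.6%. A two-sided exact permutation test of 2 against 2 libraries cannot give a p under 0.333, which Arf5 had. Its exact binomial 95% intervals, which cover counting error only, reached up to 24.7% in the libraries labelled knockout and down to 28.6% in those labelled wild type.

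Smo was found in 2 and 1 thinned cells of the female and male libraries labelled knockout (0.032% and 0.015%) and in 9 and 18 of those labelled wild type (0.496% and 0.394%). Before thinning, 13 and 12 cells held a Smo UMI against 51 and 101, or 0.210% and 0.183% of cells against 2.81% and 2.21%. Levels this close to a single UMI support no reading of a change from the shares. Of the 10 genes, 6 had thinned shares that did not overlap between the groups, against 38.1% of all genes tested (28.0% higher and 10.1% lower). Arf5, Smo and Rbm28 were the lower ones in the libraries labelled knockout, and Impdh1, Atp6v1f and Ahcyl2 the higher ones. Rbm28 differed by -1.64 points, Impdh1 by 0.73 and Atp6v1f by 2.17, and Ahcyl2 by 0.39, each with the smallest p the test allows. No class of cells here was known to lack these genes, so the free RNA gives the only background: over the 10 genes it ranged in the libraries from 0.587 UMIs per 1000000 (Smo) to 217 (Atp6v1f).

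**Figure D3:**
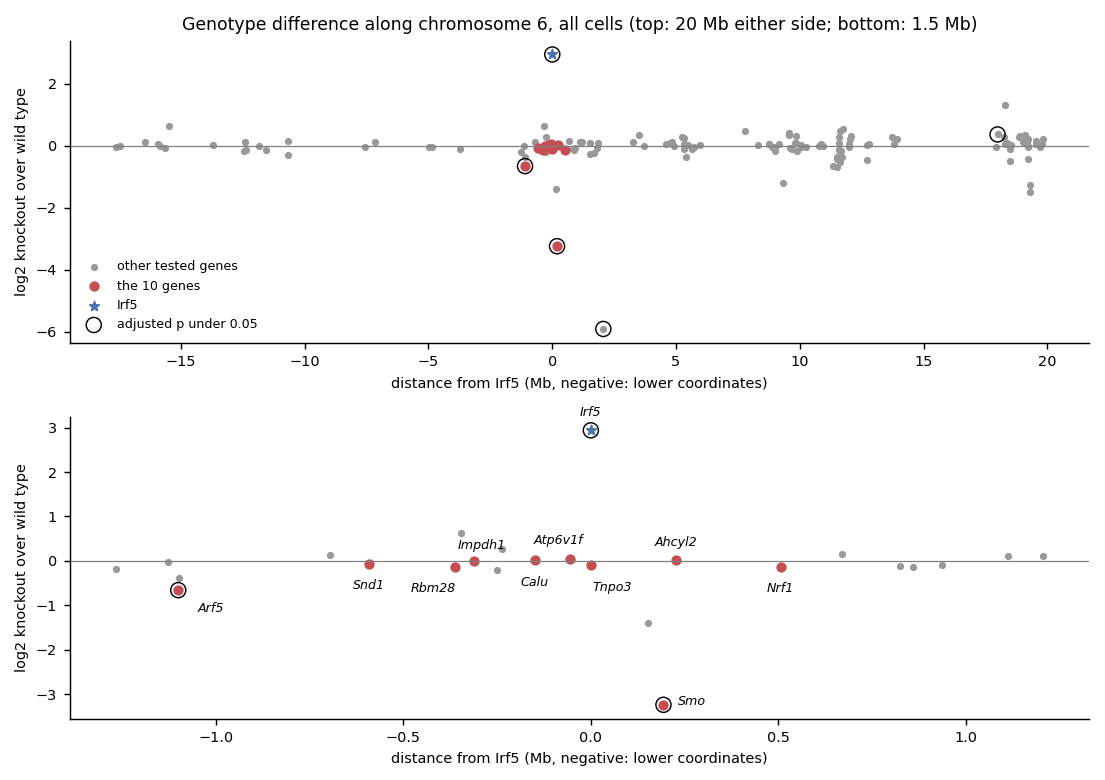
Log2 difference, labelled knockout over labelled wild type over all cells (vertical axis), of the genes tested against their distance from Irf5 in Mb (horizontal axis), within 20 Mb (top) and 1.5 Mb (bottom). Irf5 lies at 2.94, Smo at -3.24 and Arf5 at -0.66, while Snd1, Rbm28, Impdh1, Calu, Atp6v1f, Tnpo3, Ahcyl2 and Nrf1 lie between -0.13 and 0.04.

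Among the 10 genes, the called ones were not those nearest to Irf5. Arf5 is the farthest of the 10 at 1100 kb, whereas Tnpo3, which overlaps Irf5, and Atp6v1f, at 56.1 kb, were not called. Smo lies between Tnpo3 and Ahcyl2, and neither of these was called. Within 1.5 Mb of Irf5, 25 of 54 counted genes were tested and 3 were called: Irf5, Arf5 and Smo. None of the 14 others was called. The one with the largest log2 difference was Tspan33, at -1.39 (edgeR adjusted p = 0.49), with 64 of its UMIs in the female library labelled wild type and 25, 15 and 9 in the others. From 1.5 to 5 Mb, 1 of 16 was called, Gm43154, which had 0 and 1 UMIs in the female and male libraries labelled knockout, and 22 and 28 in the pair labelled wild type. Farther out, 0 of 28 were called from 5 to 10 Mb, 1 of 83 from 10 to 20 Mb and 4 of 465 beyond. The shares called were 6.25% from 1.5 to 5 Mb, 1.2% from 10 to 20 Mb and 0.86% beyond, against 1.21% of all genes tested. The 3 of 25 within 1.5 Mb include Irf5, the gene targeted, and 2 of the 10 genes, which were chosen with earlier results known. With so few called genes in a band, no trend with distance can be read from these shares. Over chromosome 6 as a whole 9 of 617 were called, or 1.46%. The difference between these shares was not tested.

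By state, 7 of the 10 genes were higher in activated cells, 2 were lower and Smo was not called. That is 9 of 10 against 82.4% of the 10967 genes tested (41.2% higher and 41.2% lower), so the share called is near that of all genes. The CPM ranges of the states did not overlap for 7 of the 10, all higher in activated cells, against 74.8% of all genes (38.0% higher and 36.8% lower). The median log2 difference, activated over resting, was 0.78 over the 10 genes and -0.02 over all genes. Sums were scaled to CPM with TMM factors. An activated cell held 1.65 to 1.78 times the UMIs of a resting one, so a gene can be lower in CPM and still not lower per cell. The median mitochondrial share was 4.55 to 4.89% in resting and 3.59 to 3.67% in activated cells of the libraries. Its part in the state differences was not tested.

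Impdh1, the IMP dehydrogenase, had the largest rise of the 10. In resting cells it stood at 16.1 and 16.8 CPM in the female and male libraries labelled knockout and at 20.7 and 17.8 CPM in those labelled wild type. In activated cells these were 64.1, 61.5, 61.0 and 65.1 CPM in the same order. The ranges were far apart, and the log2 difference was 1.85 (SE 0.08, edgeR adjusted p = 4.58e-10), or 3.61-fold. All 8 purine synthesis genes listed beside it were also higher in activated cells, with a median log2 difference of 1.90. They include Impdh2, the other IMP dehydrogenase, at 2.01, Gart at 2.59 and Ppat, the first enzyme committed to purine synthesis, at 2.30.

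Rbm28, of the nucleolus, rose from 54.6 and 55.4 CPM in resting cells of the female and male libraries labelled knockout, and 65.1 and 65.1 CPM in those labelled wild type, to 161, 163, 173 and 183 CPM. Every activated value was above every resting one. The log2 difference was 1.51 (SE 0.05, edgeR adjusted p = 9.01e-11), with 1.41 to 1.56 in the single libraries. All 11 genes of large-subunit assembly listed around it were higher too, with log2 differences of 1.81 (Wdr12) to 3.97 (Rrp1b), so that Rbm28 lay below the lowest of them.

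Snd1 stood at 24.9 to 36.6 CPM in resting cells and at 59.6 to 65.9 CPM in activated cells of the 4 libraries. Its log2 difference was 1.05 (SE 0.10, edgeR adjusted p = 7.09e-07), but the single libraries spread from 0.70 in the female library labelled knockout to 1.41 in the male one labelled wild type. Of its 7 listed partners in splicing and RNA silencing, 5 were higher in activated cells, among them the spliceosome genes Snrpd3 (1.53), Eftud2 (1.48) and Prpf8 (0.92). Ago1 (-0.36) and Adar (-0.35) were lower.

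Tnpo3, the import receptor, went from 52.1, 51.9, 54.4 and 49.1 CPM in resting cells (female and male labelled knockout, then female and male labelled wild type) to 101, 98.3, 115 and 103 CPM in activated cells. The ranges did not overlap, and the log2 difference was 1.00 (SE 0.05, edgeR adjusted p = 5.77e-09). All 9 SR protein genes listed as its cargo were higher in activated cells, from Srsf4 at 0.29 to Srsf6 at 1.89. Of 19 other transport receptors, 15 were higher and none lower. Ipo4 (3.20), Ipo5 (2.54) and Xpot, the tRNA exporter (2.47), led them, while Xpo1, the main exporter of proteins, stood at -0.01 and did not pass the test.

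Calu rose from 23.7 to 27.7 CPM across the resting sums to 47.8 to 53.2 CPM across the activated ones, with a log2 difference of 1.01 (SE 0.07, edgeR adjusted p = 5.54e-08). Of the 6 calcium-binding and chaperone genes listed with it, Canx (1.42), Calr (0.93) and Rcn1 (0.78) were higher, and Rcn3 (-2.67) and Sdf4 (-0.15) lower. Nrf1 went from 30.5 to 32.9 CPM in resting cells to 44.5 to 53.0 CPM in activated cells, with a log2 difference of 0.57 (SE 0.06, edgeR adjusted p = 5.60e-06). The 8 tested factors of mitochondrial biogenesis listed around it were all higher, from Ppargc1b at 0.42 to Pprc1, a coactivator that binds NRF1, at 2.98. The ranges of Calu and of Nrf1 did not overlap between states.

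Atp6v1f, the lysosomal pump subunit, had the smallest rise. In resting cells it stood at 168 and 173 CPM in the female and male libraries labelled knockout and at 172 and 160 CPM in those labelled wild type. In activated cells it was at 216, 210, 194 and 222 CPM, above every resting value, with a log2 difference of 0.33 (SE 0.05, edgeR adjusted p = 9.80e-05). Scaled to total UMIs without TMM factors, the median of all genes moved by -0.21 and Atp6v1f stood at 0.12, still called. The 14 other pump subunits and accessory proteins tested did not move one way: 4 were higher, led by Atp6v0c and Atp6v0b at 0.64 each, and 5 were lower, led by Atp6v1d at -1.89.

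Arf5 was the clearest of the genes that were lower in activated cells. It went from 168, 152, 229 and 210 CPM in resting cells (female and male labelled knockout, then female and male labelled wild type) to 121, 101, 175 and 188 CPM in activated cells. It was lower in all 4 libraries, by -0.16 to -0.60 on the log2 scale, although the ranges over all libraries overlapped. The log2 difference was -0.40 (SE 0.06, edgeR adjusted p = 1.06e-04), and without a library term in the model it was -0.37 with an adjusted p of 0.094. It kept its sign in all 13 alternatives, from -0.61 when scaled to total UMIs to -0.25 without a filter on low counts. In UMIs per cell it was 1.01 to 1.37 times as high in activated as in resting cells, so its level per cell was not lower. Of the 7 other ARF and ARF-like genes, 5 were higher, Arf4 at 1.02, Arl1 at 0.98, Arf6 at 0.82, Arf1 at 0.73 and Arf3 at 0.36, and Arf2 (-0.995) and Arl3 (-0.78) were lower.

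Ahcyl2 stood at 89.6, 90.9, 97.7 and 74.3 CPM in resting cells and at 71.2, 70.5, 65.0 and 78.0 CPM in activated cells, in that order of libraries. It was lower in 3 of the 4 libraries, and in the male one labelled wild type the log2 difference was 0.07. Its log2 difference of -0.28 (SE 0.08, edgeR adjusted p = 0.0084) did not hold: it was 0.01 with the cells near the cut left out (adjusted p = 0.89), and lost the call without the female library labelled wild type (-0.17, adjusted p = 0.084) or the male library labelled knockout (-0.25, adjusted p = 0.054), and with no filter on low counts (-0.13, adjusted p = 0.083). Of 7 genes of the same family and the methionine cycle, 4 were higher, among them Mat2a (2.57), which makes S-adenosylmethionine, and Ahcyl1 (0.86), and Mat2b (-0.93) and Adk (-0.30) were lower.

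Smo had 5 and 5 resting UMIs in the female and male libraries labelled knockout and 13 and 20 in those labelled wild type, with 11, 8, 50 and 106 activated UMIs. The log2 state difference was -0.33 (95% interval -1.01 to 0.35, edgeR adjusted p = 0.34), negative in 3 libraries and 0.18 in the remaining one, male and labelled wild type. At these counts the interval holds differences of either sign. Of the 4 hedgehog genes tested by state, Sufu (0.26) and Csnk1a1 (0.11) were higher and Prkaca (-1.59) lower, and Ptch1 stood at -0.02.

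**Figure D4:**
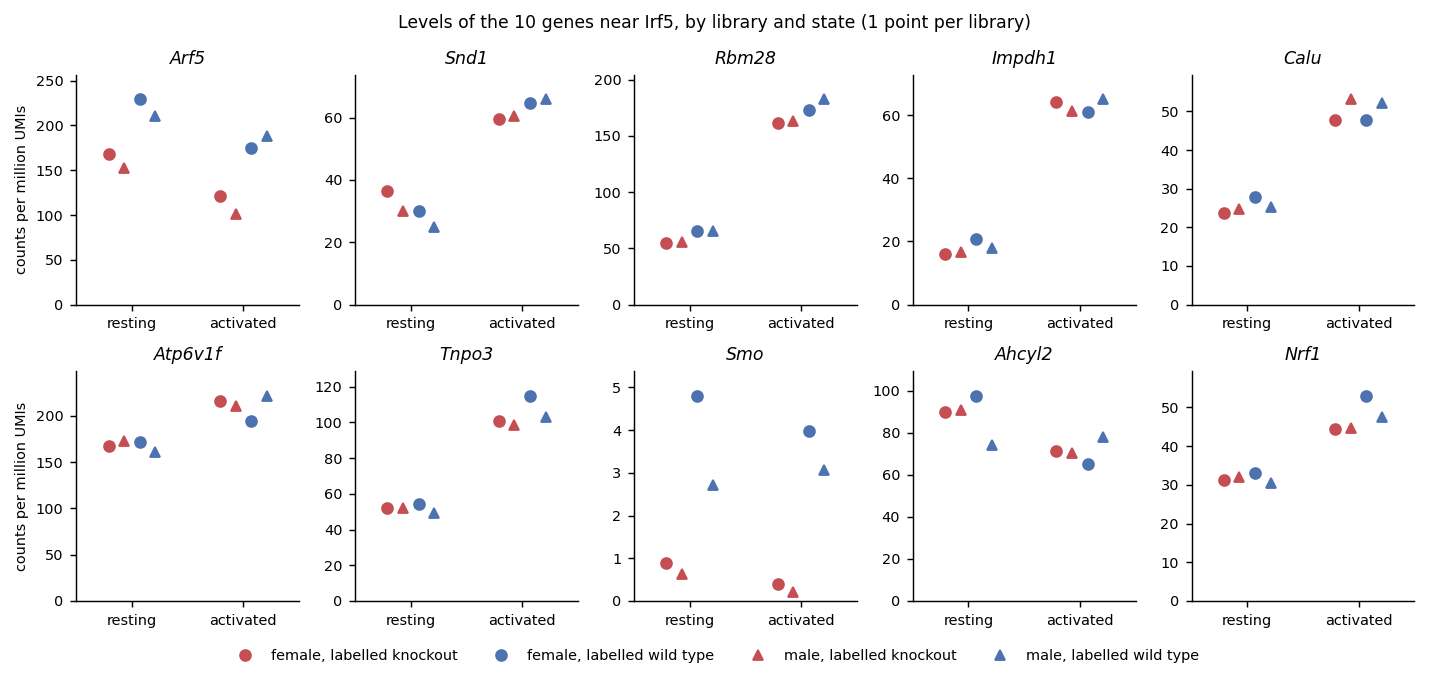
Level of each of the 10 genes in CPM (vertical axes, from 0) in resting and activated cells, 1 point per library (red, labelled knockout; blue, labelled wild type; circles, female; triangles, male). Arf5 and Smo are lower in the libraries labelled knockout in both states, while Snd1, Rbm28, Impdh1, Calu, Tnpo3 and Nrf1 differ mainly by state.

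**Figure D5:**
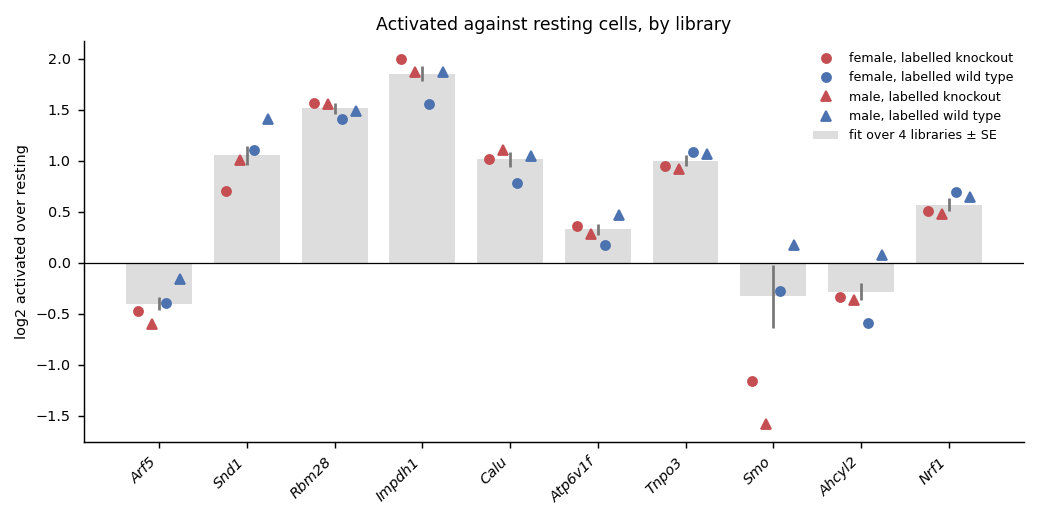
Log2 difference, activated over resting (vertical axis), of each of the 10 genes: bars give the fit over 4 libraries ± SE, points the single libraries. Impdh1 (1.85) and Rbm28 (1.51) are highest, and the libraries spread most for Smo, whose points run from -1.58 to 0.18.

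Over the 8 sums of library by state, the pattern of each gene was compared with that of all others by Pearson's r of log2 CPM, a description over 4 libraries that each give 2 of the points. Rbm28 was most like Gnl1 (r = 0.999), Gm49336 (0.999) and Eftud2 (0.999), and Impdh1 most like Gm16062 (0.999), Seh1l (0.999) and Eif3l (0.999). Tnpo3 was most like Ddx3x (0.998), Hdlbp (0.998) and Akap8 (0.998), and Nrf1 most like Ddx3x (0.994), Hdlbp (0.993) and Armc8 (0.993), so that they share 2 of 3. Both were higher in activated cells, as were 41.2% of all genes tested. How many genes reach such an r was not counted. Snd1 was nearest to Cdk9 (0.998), Tipin (0.996) and Vac14 (0.995), and Calu to Itfg2 (0.998), Stoml2 (0.998) and Nol12 (0.997). Atp6v1f was nearest to Jtb (0.996), Spag7 (0.996) and Myg1 (0.994), and Ahcyl2 to Slx4ip (0.981), As3mt (0.9749) and Fam172a (0.966). The genes nearest to Smo were Sp110 (0.972), Sp140 (0.964) and Rtel1 (0.919). Sp110 ranged from 0.252 to 135 CPM over the sums and Sp140 from 0.236 to 80.3 CPM. Those nearest to Arf5 were Gm11808 (0.938), Trim2 (0.927) and Plekha8 (0.920).

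None of the 102 tested genes of the 11 lists of relatives was called by genotype, against 1.21% of all genes tested, so this count is near the background. By state, 74 of 100 were higher and 14 lower in activated cells, against 41.2% and 41.2% of all genes. The genotype test recovered 50% of changes of 0.5 and 81.3% of changes of 1 on the log2 scale in simulated counts of the same depth. Those counts took the variance of each gene from the trend over all genes, and no simulated library stood apart in free RNA or other cell types. The rates may therefore be lower in the real libraries.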

How the data were processed

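For each of the 4 libraries the authors deposited raw UMI counts per gene and barcode for all barcodes, with no normalization. Cell Ranger 6.0.2 and mm10 are named in the submitters' processing notes, while the file headers name Cell Ranger 4; the annotation and the use of strand are not given in the sources used here. The 10 genes and all lists were chosen with earlier results of these data known. Named genes are the 10 members, Irf5, called genes within 1.5 Mb, listed relatives and, per member, the 3 genes most alike over 8 sums. Gcc1, Lrrc4 and Opn1sw are named as overlapping genes, and Tspan33 and Gm43154, outside this rule, were chosen after their values were seen.

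Cells were kept at 2000 UMIs, 500 genes and at most 10% mitochondrial UMIs. No doublets were removed in the main analysis; in an alternative the highest scrublet scores (scanpy 1.11.5) were removed at 0.8% per 1000 cells, marking 305, 26, 342 and 167 cells, since the automatic threshold marked as few as 0.0486%. UMIs were summed per library, or per library and state. They were tested with edgeR 4.0.16 (quasi-likelihood, TMM, filterByExpr, Benjamini-Hochberg over all genes tested at 0.05), with sex as a term for genotype (2 libraries each) and library as a term for state. DESeq2 1.42.0 was an alternative. CPM are UMIs per 1000000 after TMM scaling, except for sums of marker lists, which were scaled to total UMIs without TMM factors. The scripts were tested on simulated data. Promoters came from RefSeq on GRCm38.p6, and positions from GENCODE M21, which held 99.61% of the gene identifiers. Count totals per library are in the text; intervals of single counts and shares are exact (Poisson, Clopper-Pearson) at 95%.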

Additional observations from a re-analysis of the deposited data

Results flagged for a closer look

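Within activated cells, Atp6v1f differed in opposite directions in the sexes beyond counting error. The log2 difference, labelled knockout over labelled wild type, was 0.13 between the female libraries (95% counting interval 0.07 to 0.20) and -0.064 between the male libraries (-0.11 to -0.02). With 1 library of each sex and genotype the difference between the sexes has no replicates and was not tested. Over both sexes the log2 difference was 0.03 (edgeR adjusted p = 0.97).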

How the results depend on the processing

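The log2 genotype difference of Arf5 over all cells kept its sign in 13 of 13 alternatives (-0.78 to -0.54) and its call in 8, and that of Smo kept its sign in 12 of 12 (-3.75 to -2.86) and its call in 11. Smo was too scarce to be tested with equal cells of 2000 UMIs. The cause of the changes below was not tested. The labels carry no replicate numbers. Sex, a term of the genotype fits, pairs 1 library of each genotype, and no other pairing is given. Fits of genotype that leave out a library drop sex as well, and where a genotype is left with 1 library it is assumed to vary like the others.

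Genes called over all cells numbered 155, against 47 by DESeq2, 59 with equal cells, 20 without a filter on low counts and 7 without sex, and 43 to 117 with a library left out. Within activated cells they numbered 404, against 43 by DESeq2, 76 in cells of at least 4000 UMIs, 138 without doublets, 49 with equal cells, 236 without the filter, 11 without sex and 163 scaled to total UMIs, and 41 to 359 with a library left out. Within resting cells they numbered 166, against 19 by DESeq2, 98 at 4000 UMIs, 83 without cells of other types, 82 without doublets, 9 with equal cells, 6 without sex and 110 scaled to total UMIs, and 8 to 243 with a library left out. For the state they numbered 9037 and stayed between 7242 and 9921. For state by genotype they numbered 0, against 1 by DESeq2, 21 without cells near the cut and 106 without the filter, and 0 to 263 with a library left out. Scaling to total UMIs raised the share of calls that were higher in the libraries labelled knockout from 67.1% to 80.0% over all cells, from 69.3% to 84.7% in activated and from 57.2% to 67.3% in resting cells. Other settings turned the majority: the share was 41.9% over all cells and 42.3% in activated cells without the male library labelled wild type, and 48.9% over all cells without the female one labelled knockout. In resting cells it was 42.1% at 5% mitochondrial UMIs, 44.4% with equal cells, 47.4% by DESeq2, and 30.6% to 92.9% with a library left out. It was 51.0% over all cells at 4000 UMIs.

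Of the 10 genes, 2 were called over all cells, against 1 with equal cells, 1 without the filter and 0 without sex, and 1 to 2 with a library left out. In activated cells 2 were called, against 1 with equal cells, where Smo was not tested, and 1 without sex, where Arf5 was lost. In resting cells 2 were called, against 0 by DESeq2, at 4000 UMIs, without doublets, with equal cells, without sex and scaled to total UMIs, and 0 with any library left out. For state by genotype 0 to 3 were called with a library left out. Thinned shares did not overlap for 6 genes, against 10 unthinned and 7 to 9 with a library left out. The share over all genes was computed only for thinned cells of all 4 libraries. Unthinned cells were deeper in the libraries labelled wild type, and fewer libraries overlap less often. The other counts are therefore no result about the 10 genes.

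Signs turned for values that were not called, except Ahcyl2 by state, and not all were near 0. By genotype over all cells these were Snd1 at 4000 UMIs (0.019) and with equal cells (0.10), Impdh1 at most 5% mitochondrial UMIs (0.0030), at 4000 UMIs (0.086), with equal cells (0.054) and scaled to total UMIs (0.060), and Ahcyl2 at 5% (-0.0054), at 4000 UMIs (-0.050) and without other types (-0.0062). With a library left out, Impdh1 ran from -0.040 to 0.030, Calu from -0.057 to 0.075, Atp6v1f from -0.017 to 0.11 and Ahcyl2 from -0.040 to 0.062. In activated cells signs turned with equal cells for Snd1 (0.12), Impdh1 (0.0016), Atp6v1f (-0.0075) and Ahcyl2 (0.095), at 4000 UMIs for Impdh1 (0.0072), and scaled to total UMIs for Impdh1 (0.067) and Ahcyl2 (0.063). With a library left out, Impdh1 ran there from -0.043 to 0.025, Calu from -0.062 to 0.082, Atp6v1f from -0.040 to 0.11 and Ahcyl2 from -0.12 to 0.10. In resting cells they turned with equal cells for Impdh1 (from -0.20 to 0.46), Calu (0.26) and Ahcyl2 (-0.088), at 5% for Tnpo3 (-0.034) and without doublets for Nrf1 (-0.0045). With a library left out, Atp6v1f ran there from -0.011 to 0.091, Tnpo3 from -0.062 to 0.087, Ahcyl2 from -0.11 to 0.29 and Nrf1 from -0.052 to 0.062. For the state, Smo turned from -0.33 without other types (0.095), and Ahcyl2, called at -0.28, turned without cells near the cut (0.014). For state by genotype, Rbm28 turned at 4000 UMIs (-0.043), Impdh1 from 0.16 (-0.33) and Calu (-0.24) when thinned, and Atp6v1f scaled to total UMIs (0.0031). With a library left out, Atp6v1f ran from -0.15 to 0.066 and Ahcyl2 from -0.43 to 0.16.

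With 2 libraries a genotype and Smo at 13 to 126 UMIs, small differences of the rarer genes were not detectable.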
